A study of Rattus norvegicus with 18 samples.

Results

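The genes of the cytosolic ribosomal proteins were followed in rat primary hepatocytes exposed to EMD, a compound that the study presents as activating both PPARα and PPARγ, nuclear receptors that govern lipid metabolism. A gene was taken when a probe set of the array (a group of short probes read as 1 value) carried a single gene symbol of the Rpl or Rps series, Rplp0 or Rpsa, and the ribosomal protein S6 kinases and Rps19bp1 were left out. This gave 50 genes among the 14217 that had a single-symbol probe set, 34 of the large and 16 of the small subunit. Where a gene had more than 1 probe set, which held for 6 genes, the brightest over all arrays stood for it.

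The cells were hepatocytes of Wistar rats, left 24 h to attach and then kept in medium with insulin and hydrocortisone, which all groups shared. They received 0.1% DMSO as the vehicle, 30 µM EMD or 100 µM EMD, and RNA was taken at 24 h or 72 h. Each of the 6 groups had 3 arrays, 18 in all, whose values are on the log2 scale after RMA normalization. The labels call the EMD samples biological replicates, give the DMSO samples a replicate number only, and name no animals. By the study's methods each animal's cells were given every treatment, but no source used here ties a number to an animal. Unless the arrays compared are fitted alone, a p-value or limma SE here rests on the spread among arrays within groups, pooled over all 6 groups. It does not measure the spread of the groups compared by themselves. The source of the spread is not known, and no use is made of pairing. Each change given is a difference of log2 means, fitted with limma over all 31042 probe sets, and called where its Benjamini-Hochberg adjusted p was below 0.05.

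A eukaryotic ribosome joins a small subunit, which reads the messenger, to a large subunit, which forms the peptide bond. Most of the proteins are needed in fixed proportion to the ribosomal RNA, and their genes are known for being expressed together and at high level, in liver as in other tissues. Their messengers typically begin with an unbroken run of pyrimidines, the terminal oligopyrimidine (TOP) motif, through which mTOR signalling governs how strongly they are translated. Translation was not measured here, only messenger level.

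A TOP run begins at the first base of the messenger. The starts of most of the genes named below in the dose comparisons at 72 h are printed, with long and short runs alike. The marked run is the longest anywhere in the printed bases. In Rpl5, Rpsa, Rps6, Rpl11, Rpl26l1 and Rps27l it lies wholly before the annotated start. A run placed so is not shown to be part of the messenger. In Rpl24, Rpl7l1 and Rpl3l it begins after the first base, so by the annotated start it does not open the messenger. A short run does not show that a gene lacks the TOP motif. RefSeq's promoter table (build GRCr8) had entries for 41 of the 50 genes. Each line holds the 15 bases before and the 15 bases from the annotated start, 5′ to 3′ on the gene's strand, with the longest run of C and T in capitals.
Rps24, chr16:96502-96531, plus strand: tgagcggTCCTCTTTTCCTCCTTTacagct
Rpl35, chr3:43165907-43165936, minus strand: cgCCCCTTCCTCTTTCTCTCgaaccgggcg
Rpl14, chr8:129163605-129163634, plus strand: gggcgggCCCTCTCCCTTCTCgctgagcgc
Rpl35a, chr11:81235007-81235036, minus strand: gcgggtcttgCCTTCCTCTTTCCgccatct
Rplp0, chr12:46718376-46718405, minus strand: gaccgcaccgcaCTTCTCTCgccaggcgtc
Rpl12, chr3:36661925-36661954, plus strand: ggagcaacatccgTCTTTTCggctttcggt
Rpsa, chr8:128728864-128728893, plus strand: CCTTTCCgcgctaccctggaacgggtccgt
Rpl24, chr11:58128391-58128420, minus strand: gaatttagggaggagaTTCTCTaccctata
Rps6, chr5:106420526-106420555, minus strand: gacgCCTCCTaggcggtcggctgtgtcaag
Rpl5, chr14:1995211-1995240, minus strand: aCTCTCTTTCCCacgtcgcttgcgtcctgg
Rpl11, chr5:153560788-153560817, minus strand: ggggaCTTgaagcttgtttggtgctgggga
Rpl7l1, chr9:21695703-21695732, plus strand: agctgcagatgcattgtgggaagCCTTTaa
Rps4y2, chr4:183000898-183000927, plus strand: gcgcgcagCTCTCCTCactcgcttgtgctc
Rpl3l, chr10:14258431-14258460, plus strand: gacctctggtgcctggtggggaggTCCCTT
Rpl26l1, chr10:17029014-17029043, minus strand: aaatgtcaTTTCCgggcctgcgcacacacc
Rps27l, chr8:76443643-76443672, plus strand: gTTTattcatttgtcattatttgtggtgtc
The runs were 17 bases in Rps24, 18 in Rpl35, 14 in Rpl14, 13 in Rpl35a and 11 in Rpl5. Other core genes had shorter ones, of 8 bases in Rplp0, 7 in Rpl12 and Rpsa, 6 in Rpl24 and Rps6 and 3 in Rpl11. In the paralogs they were 8 bases in Rps4y2, 6 in Rpl3l, 5 in Rpl26l1 and Rpl7l1 and 3 in Rps27l. A run of at least 8 pyrimidines lay in this 30-base window in 23 of the 41 members (56.1%), against 11.4% of the 33469 promoters in the table. The letters CTTTCC, searched on both strands within 50 bases of the start, were present in 36.6% of the members and in 8.97% of all promoters. These are matches of letters around annotated starts, and the lengths and letters searched were picked after the sequences had been seen.

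The ribosomal protein messengers were among the strongest signals on the arrays. Of the 50 genes, 38 had a mean over the 18 arrays above 12, and all 38 lay in the top 1% of probe sets, from Rpl21 at 12.08 to Rps29, a small-subunit protein, at 13.88. The other 12 were dimmer. They included the paralogs Rpl7l1 (9.47), Rps27l (8.87), Rps4y2 (7.53), Rpl26l1 (5.76) and Rpl3l (3.75), the last known as the muscle form of Rpl3. They also held the pseudogene symbols Rpl37-ps2 (4.58) and Rps4x-ps1 (3.07). A level of 4.44 for Rpl30 or 3.55 for Rpl28, both core subunits, was that of a dim probe set and was not shown to lie above background. In all, 6 members had a mean below the array medians of 5.04 to 5.11, where signal above background was not shown. Rplp1, Rplp2 and Rps27a had no single-symbol probe set and were not analysed here by name.

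The arrays resembled each other closely over all probe sets, with pairwise correlations of 0.961 to 0.996. The hepatocyte genes Alb, Apoa1, Apob, Fgb, Hnf4a, Serpina1 and Ttr were high throughout, with Alb between 14.56 and 14.77. All 6 endothelial and 7 of 9 stellate cell and fibroblast markers stayed below the array median on every array, as did 2 of 9 macrophage markers. In bulk samples, fewer cells of a type and less RNA per cell cannot be told apart.

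Across the 18 arrays the 38 bright genes moved as a block. The correlation between a pair of them had a median of 0.840 over 703 pairs, with a lowest value of 0.0775 and a highest of 0.988, and all pairs shared the same arrays and normalization. The median level of the bright genes was 13.08 to 13.14 on the 3 DMSO arrays at 24 h and 13.08 to 13.13 on those at 72 h. With 30 µM EMD it was 12.95 to 13.02 at 24 h and, at 72 h, 12.83, 12.93 and 13.00 on replicates 1 to 3. With 100 µM EMD it was 13.09 to 13.13 at 24 h and, at 72 h, 13.13, 13.37 and 13.36.
At both times the 3 arrays with 30 µM lay below all DMSO arrays. At 72 h replicates 2 and 3 with 100 µM stood above every other array of the series, while replicate 1 lay in the DMSO range. Counts of called genes that rest on the 100 µM group at 72 h are therefore given with and without that array. It was singled out by these same levels, so leaving it out raises the bright genes' median change. Calls gained without it are therefore no separate support. For the gene lists and the probe sets of several symbols, fits without replicate 2 or 3 are not given.

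**Figure D1:**
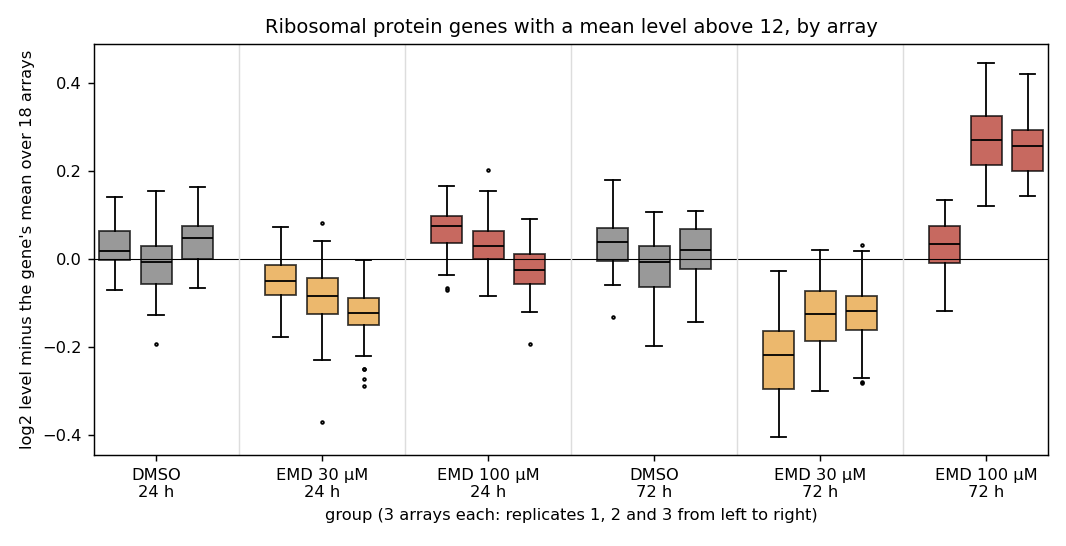
Level of the 38 bright ribosomal protein genes on each of the 18 arrays, as the log2 level minus the gene's own mean over all arrays (vertical axis), for the 6 groups of 3 arrays (horizontal axis). Boxes span the quartiles over genes with the median as a line, and whiskers reach the most distant gene within 1.5 box lengths. The medians with 30 µM at 72 h lie at -0.22, -0.12 and -0.12, and those with 100 µM at 72 h at 0.03, 0.27 and 0.26.

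Of the 12 comparisons made, the one between the doses at 72 h had the most members called. All 50 genes had a higher mean with 100 µM than with 30 µM EMD, by 0.05 to 0.61, with a median of 0.31 against 0.01 over all probe sets. In limma, 29 of the 50 rose and none fell, by 1.18-fold to 1.53-fold, where 3.1% of all 31042 probe sets were called and 1.25% were called higher. On 38 of the 50, the 3 arrays with 100 µM all lay above the 3 with 30 µM, where over all probe sets these groups did not overlap on 18.2%. The 29 were among these 38, which their selection by the same comparison makes likely. Of the called genes 18 were among the 34 of the large subunit, with a median change of 0.32, and 11 among the 16 of the small subunit, with a median of 0.30.
Only 1 of the 12 dim members was called, Rps27l, against 28 of the 38 bright ones. Among the 221 other probe sets with a mean above 12, 19 were called higher and 19 lower, with a median of -0.02, and without replicate 1 of the 100 µM group 32 and 37 were, with a median of -0.03.

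**Figure D2:**
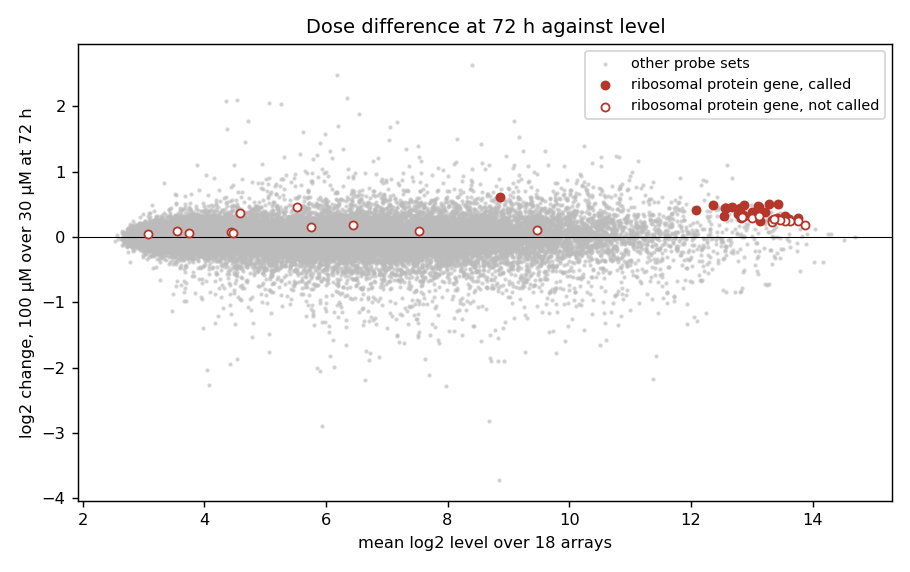
Difference between 100 µM and 30 µM EMD at 72 h on the log2 scale (vertical axis) against the mean log2 level over 18 arrays (horizontal axis) for all 31042 probe sets in grey and the 50 ribosomal protein genes in red, filled where called. The bright members form a cluster between 0.18 and 0.51, and Rps27l, at a level of 8.87, is the single filled point among the dim ones.

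The number of called genes rested strongly on single arrays and on the fit. Without replicate 1 of the 100 µM group, 40 members were called, all higher and the 29 among them, with a median of 0.38 and 8.19% of all probe sets called (4.2% higher). Without its replicate 2 or its replicate 3, 2 members were called, with medians of 0.27 and 0.29 and 0.454% and 0.57% of probe sets called. Without replicate 1, 2 or 3 of the 30 µM group the count was 7, 9 or 13, here without the share of all probe sets. Between 47 and 50 members stayed above 0 in those 6 fits.
When the 6 arrays were fitted alone, none of the members passed in limma. That fit had fewer degrees of freedom and no longer pooled the spread with the other groups. The arrays' median level of the bright genes had an SD of 0.138 with 100 µM and 0.088 with 30 µM at 72 h. In the other groups it was 0.024 to 0.039 (n = 3 each), so the pooled SE can understate the spread here. The part of each in the lost calls was not tested. The lowest adjusted p of a member was then 0.066, and 141 of 31042 probe sets were called. An unadjusted limma p below 0.05 was found for 37 members and for 4262 of all probe sets. After cyclic loess normalization of the RMA values 10 members were called, here without the share of all probe sets. The median was then 0.17, with all 50 still above 0.

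Rps24, a small-subunit protein whose human gene is altered in some cases of Diamond-Blackfan anaemia, had the smallest adjusted p for the dose difference. At 72 h its levels were 13.30, 13.21 and 13.27 with DMSO, 12.96, 13.09 and 13.02 with 30 µM, and 13.35, 13.64 and 13.59 with 100 µM. No 2 of these groups overlapped, with DMSO in between. It rose by 0.51 ± 0.08 (SE, n = 3 per group, limma adjusted p = 0.00367) from 30 µM to 100 µM. A dim second probe set of the gene, with a mean of 5.43, gave -0.26 for the same comparison (limma adjusted p = 0.525), so the pair of probe sets disagreed in direction.

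Rpl12, a large-subunit protein at the base of the stalk that recruits translation factors, read 13.02, 13.23 and 13.14 with 30 µM and 13.45, 13.75 and 13.68 with 100 µM at 72 h. The DMSO arrays were at 13.48, 13.42 and 13.43, all above the 30 µM arrays, and 1 of them lay within the range of the 100 µM arrays. The rise from 30 µM to 100 µM was 0.50 ± 0.08 (SE, n = 3 per group, limma adjusted p = 0.00493).

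Rplp0, the scaffold of the acidic stalk and often used as a reference gene, was at 13.00, 13.13 and 13.11 with 30 µM and at 13.34, 13.52 and 13.52 with 100 µM. The DMSO arrays at 72 h lay between these groups, at 13.28, 13.26 and 13.32. The rise between doses was 0.38 ± 0.07 (SE, n = 3 per group, limma adjusted p = 0.0113). Rpsa, a small-subunit protein also known as the laminin receptor, rose by 0.45 ± 0.09 (SE, n = 3 per group, limma adjusted p = 0.0109). Its levels were 12.39, 12.57 and 12.51 with 30 µM and 12.79, 13.01 and 13.01 with 100 µM, and the groups did not overlap. Both further probe sets of Rpsa were also called higher, by 0.65 and 0.58.

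Rps6, the substrate of the S6 kinases, rose by 0.28 (limma adjusted p = 0.0359), from 13.46, 13.50 and 13.53 with 30 µM to 13.67, 13.84 and 13.82 with 100 µM. Rpl5 and Rpl11 form with 5S ribosomal RNA the particle that can bind the p53 regulator Mdm2. Rpl5 rose by 0.27 (limma adjusted p = 0.0434). For Rpl11 the difference was 0.30 with an adjusted p of 0.0825, and its levels were 12.70, 12.85 and 12.86 with 30 µM and 12.97, 13.21 and 13.13 with 100 µM, with no overlap. Without replicate 1 of the 100 µM group the changes were 0.60 for Rps24, 0.59 for Rpl12, 0.44 for Rplp0, 0.53 for Rpsa, 0.33 for Rps6, 0.32 for Rpl5 and 0.37 for Rpl11, all called, with limma adjusted p between 1.9e-04 and 0.0236.

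The paralogs, second copies of a ribosomal protein gene with narrower or separate expression, had 1 called gene between the doses at 72 h. Rps27l, known as a p53 target, rose by 0.61 ± 0.13 (SE, n = 3 per group, limma adjusted p = 0.0155). It was at 8.39, 8.67 and 8.66 with 30 µM and at 9.09, 9.31 and 9.17 with 100 µM, with the DMSO arrays at 9.14, 8.96 and 9.12. Those of DMSO overlapped with the 100 µM arrays and lay above the 30 µM arrays. The differences of the others were 0.15 for Rpl26l1, 0.10 for Rpl7l1, 0.09 for Rps4y2 and 0.07 for Rpl3l, with limma adjusted p of 0.586, 0.628, 0.913 and 0.877. Rpl39l1, a further paralog by its symbol, gave 0.46 (limma adjusted p = 0.194). Without replicate 1 of the 100 µM group it gave 0.63 and was called (limma adjusted p = 0.0401), Rps27l was called at 0.67, and Rpl26l1, Rpl7l1, Rps4y2 and Rpl3l stayed uncalled at 0.26, 0.19, 0.18 and 0.08.

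Against DMSO at 72 h the ribosomal protein genes were mostly lower with 30 µM and mostly higher with 100 µM, with few of them called. The 2 comparisons share the same 3 vehicle arrays, so each is given with its own values. With 30 µM the median change was -0.16, and 7 of the 50 genes fell while 1 rose, where 17.1% of all probe sets were called (9.22% lower and 7.88% higher). With 100 µM the median change was 0.15, and 6 rose while none fell, again with 17.1% of all probe sets called, 7.42% higher. The share of members called lower with 30 µM, 14%, and that called higher with 100 µM, 12%, were therefore not far from the background. Over the 38 bright genes alone, the changes ranged from -0.31 to -0.06 with 30 µM and from 0.06 to 0.37 with 100 µM.

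**Figure D3:**
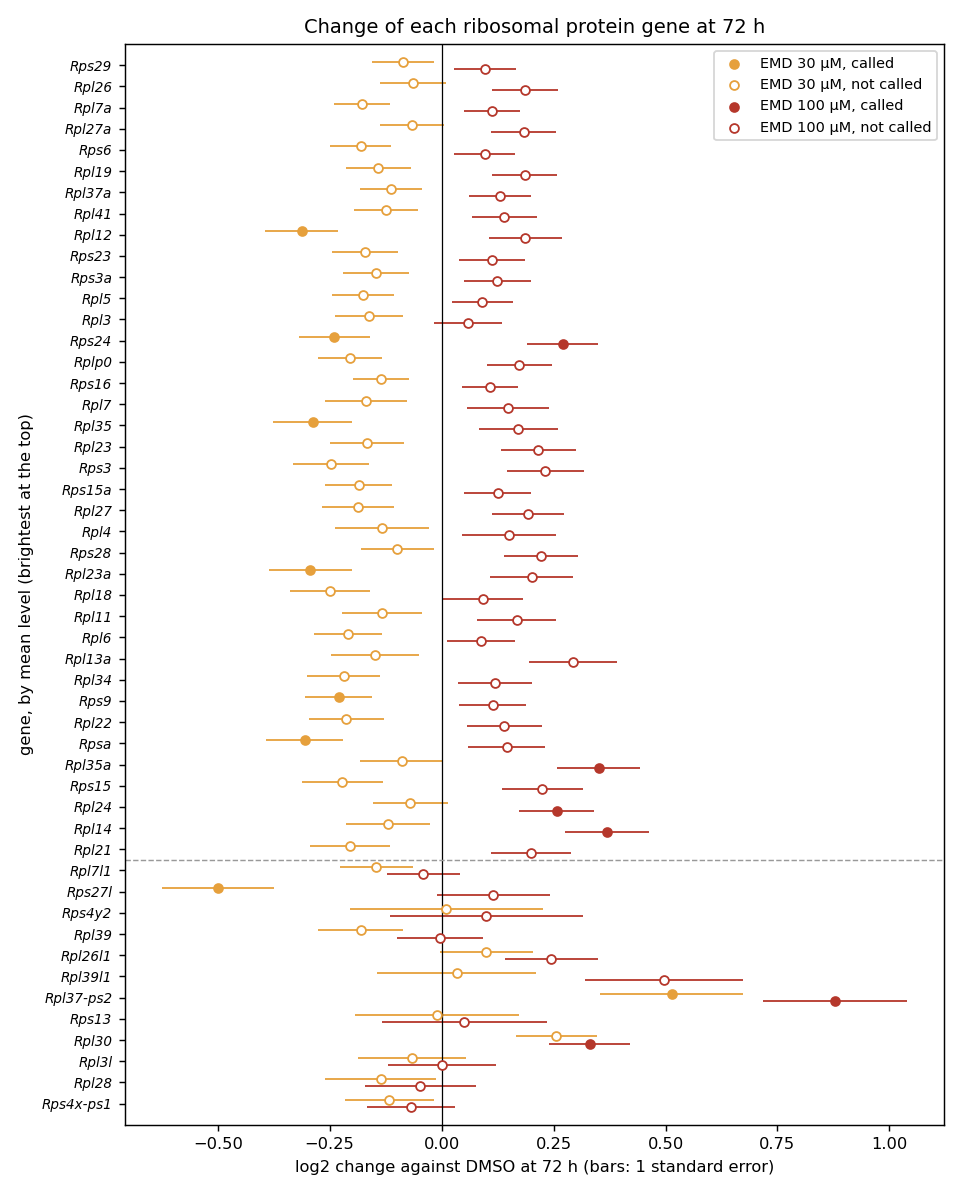
Change of each of the 50 genes against DMSO at 72 h on the log2 scale (horizontal axis), with 30 µM EMD in orange and 100 µM in red, filled where called, ordered by mean level (vertical axis) with a dashed line between bright and dim members. Bars are 1 standard error of the limma fit. Above the dashed line the orange points lie left of 0 and the red ones right of it, and below it they do not separate in this way.

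The genes that fell with 30 µM were Rps27l (-0.50), Rpl12 (-0.31), Rpsa (-0.31), Rpl23a (-0.29), Rpl35 (-0.29), Rps24 (-0.24) and Rps9 (-0.23), with limma adjusted p between 0.00991 and 0.0481. Rpl23a and Rpl35 sit at the exit of the tunnel through which the new chain leaves, and Rps9 belongs to the body of the small subunit. Rpl35 was at 13.10, 13.11 and 13.12 with DMSO and at 12.71, 12.89 and 12.86 with 30 µM. Rpl23a was at 12.81, 12.86 and 12.84 with DMSO and at 12.47, 12.58 and 12.59 with 30 µM. In both genes all 30 µM arrays lay below all DMSO arrays.
Without DMSO replicate 1 or 30 µM replicate 1 a single member was called, without DMSO replicate 2, DMSO replicate 3 or 30 µM replicate 3 there were 3, and without 30 µM replicate 2 there were 5. Fitting these 6 arrays alone gave 2 calls, and cyclic loess 3. All these counts stand without the share of all probe sets called in the same fit.

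The genes that rose with 100 µM were Rpl37-ps2 (0.88), Rpl14 (0.37), Rpl35a (0.35), Rpl30 (0.33), Rps24 (0.27) and Rpl24 (0.26), with limma adjusted p between 9.37e-04 and 0.0444. Rpl14, Rpl35a and Rpl24 are proteins of the large subunit. Rpl14 was at 12.44, 12.29 and 12.25 with DMSO and at 12.48, 12.81 and 12.79 with 100 µM. Rpl35a was at 12.56, 12.43 and 12.49 with DMSO and at 12.62, 12.96 and 12.96 with 100 µM. In both, the lowest 100 µM array was replicate 1, which stood just above the highest DMSO array.
Without that array 22 members were called, the 6 among them, with 9.11% of all probe sets called higher, and the median was 0.23. Without replicate 2 or replicate 3 of the 100 µM group 2 members or 1 were called, without DMSO replicate 2 or 3 there were 3, and a fit of these 6 arrays alone called 1. Those smaller counts stand without the share of all probe sets. The dim second probe set of Rps24 went the other way here too, by -0.60 (limma adjusted p = 0.0206), while that of Rpl14, with a mean of 4.47, was called higher by 0.49.

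At 24 h few members passed. With 30 µM none of the 50 was called in limma, where 5.36% of all probe sets were, and the median was -0.10. An unadjusted limma p below 0.05 was found for 5 members and for 5058 of all 31042 probe sets. The bright genes ranged from -0.25 to -0.02 in that comparison. With 100 µM 1 was called higher, where 6.01% of probe sets were called and 3.06% called higher, with a median of 0.01, and the bright genes ranged from -0.06 to 0.07. Between the doses none was called in limma, as was the case for all 31042 probe sets (0%). An unadjusted limma p below 0.05 was found for 4 members and for 1421 of all probe sets. The members' median was 0.10, and on 27 of them the 3 arrays with 100 µM all lay above or all below those with 30 µM, as they did on 12.5% of all probe sets.

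The call at 24 h was Rpl26l1, a paralog of Rpl26. It read 5.29, 5.48 and 5.42 with DMSO, 5.56, 5.74 and 5.81 with 30 µM, and 5.87, 6.06 and 5.87 with 100 µM. The 3 groups did not overlap. The rise with 100 µM was 0.54 ± 0.10 (SE, n = 3 per group, limma adjusted p = 0.00361), and the change with 30 µM was 0.31 (limma adjusted p = 0.117). It was called without any one of the 6 arrays. At 72 h the change with 100 µM was 0.25 (limma adjusted p = 0.128), with DMSO at 5.72, 5.67 and 5.80. Rpl26, its bright counterpart, was not called at 24 h or against DMSO at 72 h.

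**Figure D4:**
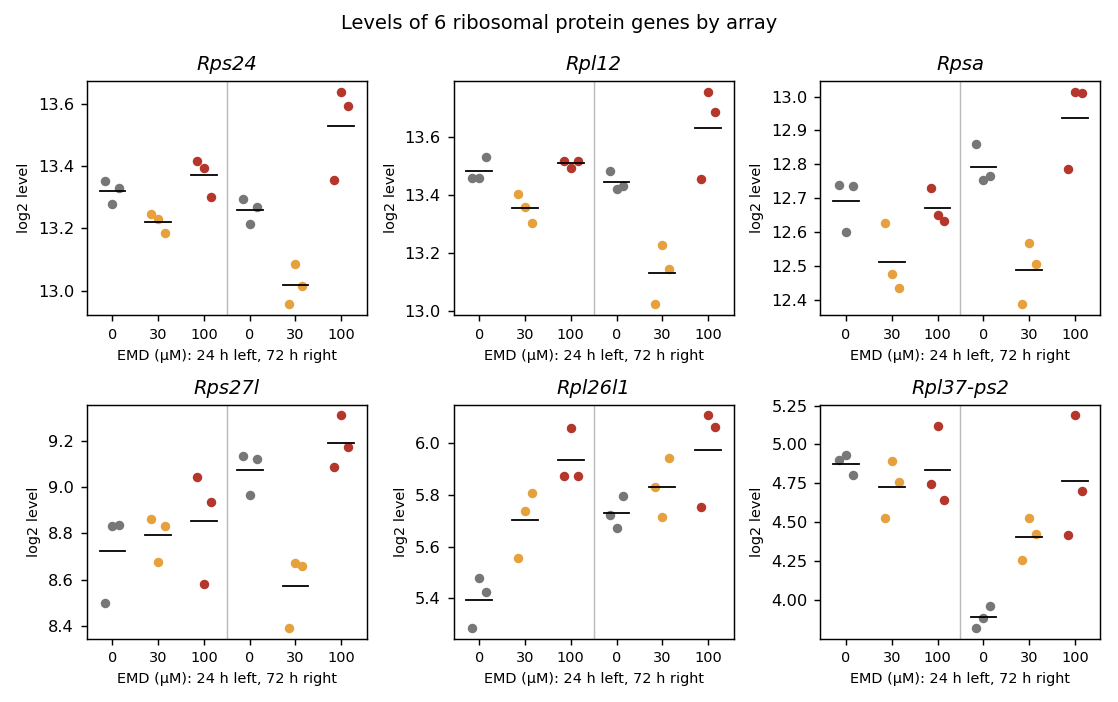
Log2 level of Rps24, Rpl12, Rpsa, Rps27l, Rpl26l1 and Rpl37-ps2 (vertical axes, each with its own range) on every array, by EMD concentration in µM (horizontal axis, 0 being DMSO), with 24 h on the left and 72 h on the right of the grey line. Points are single arrays and bars are group means. In the upper row the lowest points with 100 µM at 72 h are replicate 1, and Rpl26l1 differs from the others by its stepwise levels at 24 h.

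In DMSO the ribosomal protein genes differed little between 24 h and 72 h. The median change was 0.01, and 1 member was called higher and 2 lower, where 21.7% of all probe sets were called. Rpl26l1 rose by 0.33 (limma adjusted p = 0.0310), Rps28, a small-subunit protein, fell by 0.28 (limma adjusted p = 0.0218) and Rpl37-ps2 fell by 0.99 (limma adjusted p = 4.44e-04). Rps28 went from 13.00, 12.99 and 13.04 to 12.75, 12.71 and 12.74, with no overlap. Without DMSO 72 h replicate 2 or DMSO 24 h replicate 3, 1 member was called, here without the share of all probe sets.
Rpl37-ps2 was at 4.90, 4.93 and 4.80 with DMSO at 24 h and at 3.82, 3.88 and 3.96 at 72 h. With EMD at 72 h it was at 4.26, 4.53 and 4.42 for 30 µM and at 4.42, 5.19 and 4.70 for 100 µM. All EMD arrays at 72 h thus lay above all DMSO arrays of that time, in a range where signal above background was not shown.

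Over the same interval in the EMD cultures, 2 members fell with 30 µM, Rps28 (-0.29) and Rpl22 (-0.28), where 13.6% of probe sets were called and 6.15% called lower. With 100 µM 6 rose, where 12.4% were called and 6.77% called higher. They were Rpl14 (0.32), Rpl11 (0.32), Rpl24 (0.30), Rplp0 (0.29), Rps9 (0.25) and Rps16 (0.22). Without 100 µM 72 h replicate 1 that count was 16, where 8.14% of probe sets were called higher, and without its replicate 2 or 3 it was 0, and without 100 µM 24 h replicate 2 or 3 it was 2 or 1. With 30 µM it was 0 or 1 whichever of the 6 arrays was left out (1 without replicate 3 of either time). Apart from the 16, the counts with an array left out stand without the share of all probe sets.

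Whether a response differed between the times was tested as an interaction. None of the 50 genes was called in limma for 30 µM, for 100 µM or for the difference between the doses, where 0.941%, 0.693% and 0.00644% of all probe sets were. The members with an unadjusted p below 0.05 numbered 2, 3 and 17, and over all 31042 probe sets 3923, 3598 and 1804 had one. For the difference between doses the median interaction was 0.20, and 48 of 50 members were above 0. The difference between the doses at 72 h is therefore not shown to differ from that at 24 h. Without 100 µM 72 h replicate 1, 2 members were called for the 100 µM interaction and 1 for that between doses, where 1.14% and 0.309% of probe sets were called higher. With the replicate number as a block, Rpl37-ps2 was called for both interactions with DMSO (0.66 and 0.92, limma adjusted p = 0.0485 and 0.0126), and without it the adjusted p was 0.209 and 0.0836.

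Probe sets that the single-symbol rule left out gave a second reading. There were 30 whose several symbols were all ribosomal proteins. Between the doses at 72 h, 21 of them were called higher and none lower, with a median of 0.35, where 1.25% of all probe sets were called higher. Without replicate 1 of the 100 µM group 28 were called higher, with a median of 0.42, where 4.2% of all probe sets were. They come from the same arrays, and some may detect the same messengers, so they are not separate samples. Against DMSO at 72 h, 4 were called lower with 30 µM (median -0.18), where 9.22% of all probe sets were called lower. With 100 µM 4 were called higher (median 0.15), where 7.42% of all probe sets were. Each 4 is 13.3% of the 30, not far from the background. Without that replicate 13 were called higher with 100 µM (median 0.22), where 9.11% of all probe sets were.

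The wider translation machinery was read from further gene lists at the same comparison, 100 µM over 30 µM at 72 h. Of 14 other messengers known to carry a TOP run, 9 rose and none fell, with a median of 0.44. They included Eif4b (0.71), an initiation factor that assists the helicase, Eef1d (0.64), a nucleotide exchange subunit, and Eef1b2 (0.62). Of 12 elongation factors 4 rose, Eef1d, Eef1b2, Eef1g (0.46) and Eef2 (0.41), the translocase. Of 36 initiation factors 7 rose, led by Eif4b, Pabpc4 (0.66) and Eif3k (0.57), a subunit of the scaffold eIF3. Some genes stood in more than 1 of these lists.

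Lists outside the TOP messengers had smaller shares. Of 69 genes of ribosome biogenesis and RNA polymerase I, 3 rose, Polr1d (0.56), Ncl (0.54) and Nop16 (0.53), with a median of 0.12. Of 73 mitochondrial ribosomal proteins, which serve the separate ribosome of that organelle, 1 rose, Mrpl17 (0.36), with a median of 0.13. Of 19 cytosolic aminoacyl-tRNA synthetases 2 rose, Wars1 (1.05) and Qars1 (0.51), with a median of 0.02. Of 22 kinases and repressors acting on TOP messengers, mTOR signalling among them, none was called in limma between the doses and the median was 0.02. None of these lists had a gene called lower, and whether the lists differed from each other was not tested.
Without replicate 1 of the 100 µM group, where 4.2% of all probe sets were called higher, the lists had more calls. The other TOP messengers then had 12 called higher of 14, the elongation factors 7 of 12 and the initiation factors 11 of 36. Ribosome biogenesis had 13 of 69, the mitochondrial ribosomal proteins 12 of 73, the tRNA synthetases 6 of 19 and the kinases and repressors 1 of 22. None of these lists had a gene called lower in that fit either.

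**Figure D5:**
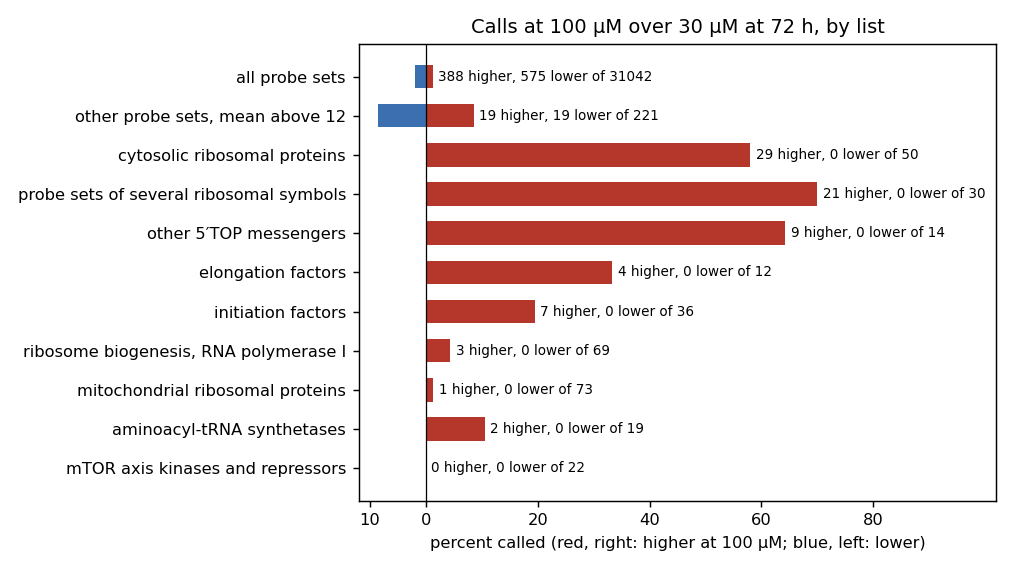
Percent of each list called higher (red, to the right) or lower (blue, to the left) with 100 µM than with 30 µM EMD at 72 h (horizontal axis), with the counts beside each bar. The cytosolic ribosomal proteins reach 58%, the other TOP messengers 64.3% and all probe sets 1.25% higher, and the mitochondrial ribosomal proteins 1.37%.

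Against DMSO at 72 h, where 17.1% of all probe sets were called at each dose, the same lists were read beside the ribosomal proteins, and whether they differed from them was not tested. Of the mitochondrial ribosomal proteins 10 were called higher and 4 lower with 30 µM, and 12 higher and 1 lower with 100 µM, Mrps18a reaching 1.50. The tRNA synthetases had 8 called lower and none higher with 30 µM, and 7 lower and 1 higher with 100 µM, among them Cars1 at -0.48 and -0.70. Of the kinases and repressors, 5 fell at each dose. The sestrin Sesn1, an inhibitor of mTORC1, fell by 0.84 and 0.91, Rictor, the mTORC2 subunit, by 0.76 and 0.74, and Akt1 by 0.51 and 0.46. The elongation factors had 0 higher and 2 lower with 30 µM, and 1 and 1 with 100 µM. Among them Eef2k, the kinase that inhibits Eef2, fell by 0.92 and 1.14. The initiation factors had 4 higher and 5 lower with 30 µM, and 10 and 2 with 100 µM. In that list Eif4ebp2 rose by 0.64 at each dose, and Eif4ebp1 fell by 0.55 and 0.46. Ribosome biogenesis had 1 higher and 6 lower with 30 µM, and 3 and 2 with 100 µM. The TOP messengers other than ribosomal proteins had 5 called lower and none higher with 30 µM, and 5 higher and 1 lower with 100 µM. Vim was among those lower at both doses (-1.58 and -1.62). Without replicate 1 of the 100 µM group 19.6% of probe sets were called. The calls with 100 µM were then 30 higher and 1 lower for the mitochondrial ribosomal proteins and 2 and 6 for the tRNA synthetases. They were 0 and 5 for the kinases and repressors and 8 and 1 for the other TOP messengers. The elongation factors had 7 and 1, the initiation factors 11 and 1 and ribosome biogenesis 10 and 3.

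Of the genes outside the members, those whose level followed the mean of the members most closely over the 18 arrays were Bag1 (r = 0.961), a co-chaperone, Eif3m (0.961), Ppp1r7 (0.959), a phosphatase regulator, Nme2 (0.947), a nucleoside diphosphate kinase, and Rack1 (0.944), itself a protein bound to the small subunit. They were picked as the highest correlations over all other genes, and the points share arrays and normalization. Between the doses at 72 h they rose by 0.70, 0.44, 0.44, 0.51 and 0.51 in that order.

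RNA quality and cell markers were read beside the dose difference at 72 h. The difference between the 3′ and 5′ control probe sets of beta-actin, which grows as RNA is shortened, averaged 0.848 ± 0.041 with 30 µM and 0.847 ± 0.006 with 100 µM (SD, n = 3 each), and 0.698 ± 0.054 with DMSO. At 24 h it averaged 1.31 with DMSO, 1.33 with 30 µM and 1.29 with 100 µM. The same difference for hexokinase at 72 h averaged 1.50 ± 0.14 with 30 µM, 1.67 ± 0.11 with 100 µM and 1.57 ± 0.07 with DMSO. That for GAPDH averaged 0.171 ± 0.038, 0.141 ± 0.024 and 0.168 ± 0.024 in that order (SD, n = 3 each). For both of these controls the arrays of the doses overlapped, with the means moving in opposite directions. The mean level of the 7 hepatocyte markers at 72 h was 12.61 to 12.81 with 30 µM, 12.50 to 12.77 with 100 µM and 13.03 to 13.09 with DMSO. That of the 9 macrophage markers was 4.85 to 5.21, 4.95 to 5.19 and 5.17 to 5.46. Between the doses these ranges overlapped, and against DMSO the hepatocyte markers lay lower on every EMD array. Single markers moved between the doses at 72 h. Among hepatocyte genes Apob, which carries lipoproteins, fell by 0.84 (limma adjusted p = 0.0227) and Fgb, a fibrinogen chain, rose by 0.80 (limma adjusted p = 0.0305). Cd14 fell by 0.78 (limma adjusted p = 0.0278) and was the 1 macrophage marker called. Of the 9 macrophage markers 5 lay above 0 and 4 below, with a median of 0.02. The part of these markers in the changes of ribosomal protein genes was not tested.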

How the data were processed

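Total RNA was biotin-labelled and hybridized to Affymetrix rat arrays, 1 array per sample. The authors condensed the probes with RMA in Affymetrix Expression Console, and the deposited values are RMA-normalized log2 expression per probe set. The RMA version and settings were not given in the sources used here, and no detection calls or scan dates were used. The 57 control probe sets were set aside and 31042 of 31099 tested. Probe sets were named from the platform annotation (20826 with 1 symbol, 436 with several, 9780 with none). Of the 50 members, 48 matched RefSeq's GRCr8 genes by gene ID.

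One limma 3.58.1 fit in R 4.3.3 covered the 6 groups, with no covariate, moderated by eBayes, and p-values were adjusted by Benjamini-Hochberg over all probe sets in each of 12 comparisons. The script was tested on simulated data for the dose difference at 72 h, with changes set in bright probe sets only. Of 50 changes each of 0.2, 0.3, 0.5 and 1, it called 4%, 10%, 60% and 90%, with 7 false calls. Far fewer probe sets changed there than were called in most comparisons, so these shares need not hold for the real data. A small change that was not called is not shown to be absent. The comparison of the dose difference between times and the count over bright genes were added after seeing the data, and the members and lists were chosen with earlier results of these data known. Named members were up to 6 called rises and 6 falls per comparison (3 between doses) with groups that did not overlap, plus the stalk, Rpsa, Rps6, Rpl5, Rpl11 and paralog genes. Of further lists up to 3 called genes were named. Any other gene named was chosen after its values were seen. Alternatives covered normalization, variance moderation, array weights, the replicate block, the arrays fitted, a filter on dim probe sets, the choice of probe set and each array left out. Arrays give no read depth, so their number limits the precision: the median standard error of a member's difference was 0.084.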

Additional observations from a re-analysis of the deposited data

Results flagged for a closer look

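A control probe set for 5S ribosomal RNA, outside the probe sets tested above, differed between EMD and DMSO. Its mean level at 24 h was 7.99 with DMSO, 9.67 with the lower EMD dose and 9.88 with the higher. The 72 h means were 7.27, 9.28 and 9.21 in that order. Every EMD array lay above every DMSO array. In limma over all 31099 probe sets the differences from DMSO were 1.68 and 1.89 at 24 h and 2.004 and 1.938 at 72 h, with adjusted p between 4.87e-05 and 7.68e-04, while the doses differed by 0.21 and -0.07 (adjusted p = 0.999 and 0.954). What this probe set measures on these arrays was not tested.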

How the results depend on the processing

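The dose difference at 72 h (29 members called) kept its direction but not its count: 10 after cyclic loess and 0 with its 6 arrays fitted alone. Leaving out single arrays gave 2 to 40. Against DMSO at 72 h the count with 30 µM (8) was 3 after cyclic loess, 4 with array medians made equal, 14 with an intensity trend and robust moderation, 2 with the arrays fitted alone, and 1 to 5 with an array left out. That with 100 µM (6) was 23 with array weights, 1 with the arrays fitted alone, and 1 to 22 with an array left out. The single call at 24 h was a dim gene, so 0 remained among bright ones.

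Over time in DMSO (3) the count was 1 with the arrays fitted alone or bright members only, 5 with all probe sets averaged or the dimmest taken, and 1 to 3 with an array left out. With 30 µM (2) it was 6 after cyclic loess, 4 with the trend, 5 with array weights, 0 with the arrays alone, 4 after a filter on dim probe sets, 4 with probe sets averaged, and 0 to 1 with an array left out. With 100 µM (6) it was 0 after cyclic loess, 25 with array weights, 0 with the arrays alone, and 0 to 16 with an array left out. The interaction for 100 µM (0) was 3 with array weights and 0 to 2 with an array left out, and that between doses 0 to 1. The cause of these shifts was not tested. Most counts under a changed setting, here and above, stand without the share of all probe sets called in the same fit. They do not show whether members lost or gained calls more than other probe sets.

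Rps24 changed sign with its dim probe set: -0.17 for 100 µM against DMSO with probe sets averaged, and -0.60 with the dimmer alone, which gave -0.26 between doses. Rps4y2 between doses ranged from -0.070 to 0.26 with an array left out. Of the other settings for named genes, 291 left the gene called or uncalled as it was, 105 lost a call and 2 gained one. The 291 include genes that were not called to begin with.

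With the replicate number as a block, 30 members were called between doses at 72 h (28 of them among the 29), and 1 for each interaction with DMSO, Rpl37-ps2 in both. By the study's methods each animal's cells were given every treatment, but no source used here says that a number marks an animal, so the reported p-values come from the fit without the block. Deviations of same-numbered arrays correlated at a median of 0.324, above 0.1 in 39 of 45 pairs, and all 18 arrays correlated best with their own number, which is a hint from the data. The block moved no other count by over 1.5 times. For the 6 members below the array medians signal over background was not shown, which limits what their differences can say.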
